A study of Mus musculus with 16 samples.

Results

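The stretch of mouse chromosome 6 that holds the immunoglobulin kappa light chain locus was examined in ChIP-seq libraries of splenic B and T cells. It was taken as every 5 kb window from chr6:67400001-70800000 of build mm8, which is 680 of the 492493 windows of 5 kb that cover chromosomes 1 to 19. The position alone chose the windows. Each read was assigned by its midpoint, and depth was given in RPM (reads per 1000000 reads on chromosomes 1 to 19) and as the ratio to the 1200 windows of the flanks, 3 Mb on each side.

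There were 12 B cell and 4 T cell libraries. B cells, labelled quiescent and from spleen, were cultured with LPS (lipopolysaccharide, a B cell activator) at 25 µg/ml and the compound 10058-F4 for 4 h (2 IgG, 1 Myc and 1 Pol2 library), with LPS alone for 4 h (B4; 3 IgG, 2 Myc and 1 Pol2 library), or without LPS (B0; 1 IgG and 1 Myc library). T cells, labelled resting and from spleen, were treated with the activator concanavalin A at 7.5 µg/ml for 4 h (T4; 1 IgG and 1 Myc library) or 14 h (T14; 1 IgG and 1 Myc library). 10058-F4 is a small molecule known to block the dimer of Myc and Max. The Myc libraries were made with an antibody to EGFP, the Pol2 libraries with Abcam ab5408, and the IgG libraries with a nonspecific antibody that reads background depth. The labels give no age, strain or genotype, no dose of 10058-F4, and no word on how many animals were pooled. The mark "wt" in the titles of B4 Pol2 and B4 IgG replicate 2 is not explained there.

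Libraries held 1278471 to 7433203 reads on chromosomes 1 to 19 after repeated positions were removed, and 632 to 4395 of these lay in the stretch. Reads were 45 bases long in 10 B cell libraries, 24 to 30 bases in B4 IgG and Myc replicate 1, and 25 bases in the T cell libraries, so outside that pair of libraries read length and cell type cannot be told apart. The titles and the file names of the T14 libraries give opposite antibodies. The titles were followed, and the 2 libraries are called the library labelled T14 IgG and the library labelled T14 Myc. Enrichment over chromosomes 1 to 19 ran against the titles: the library labelled T14 Myc gave 10 regions over the one labelled T14 IgG, and the reverse gave 2061, where T4 Myc gave 1151 over T4 IgG. Tests on IgG libraries are therefore also given with these 2 libraries exchanged, while the segments follow the titles.

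A kappa light chain gene is assembled in developing B cells by joining 1 of many V segments to a J segment that lies before the constant segment. The V segments face in both directions, so joining deletes the DNA between some pairs and inverts it between others. T cells normally rearrange their receptor genes and leave the kappa locus unjoined. RNA polymerase II (Pol2) transcribes the joined gene, whose enhancers lie near the J and constant segments, and Myc is a transcription factor that is induced when B cells are activated. The RefSeq table of assembly GRCm38.p6 lists 162 Igkv, 5 Igkj and 1 Igkc entries on this chromosome, in the order Igkv, Igkj, Igkc, with the protein-coding genes Rpia and Eif2ak3 next after Igkc. Rpia encodes a sugar phosphate isomerase and Eif2ak3 a kinase that senses stress in the endoplasmic reticulum. That table is of another build, so no gene is assigned to an mm8 position here.

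The stretch was shallow in B and T cells alike. Its depth relative to the flanks lay between 0.303 and 0.558 in all 16 libraries. In the 6 B cell IgG libraries it was 0.303 and 0.388 with 10058-F4, 0.422, 0.334 and 0.498 in B4, and 0.357 in B0. In the 2 T cell IgG libraries it was 0.429 in T4 and 0.333 in the library labelled T14 IgG. Both T cell values lie inside the range of the B cell values.

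The mean log2 relative depth was -1.40 ± 0.25 in B cell IgG libraries (SD, n = 6) and -1.40 ± 0.26 in T cell IgG libraries (SD, n = 2). The difference of 0.0036 was smaller than the spread between libraries (exact two-sided permutation test, p = 1.0, adjusted over 4 tests 1.0). This design cannot give a p below 0.0714. With the T14 libraries exchanged the difference was -0.24 (exact permutation test, p = 0.286). Over all antibodies the 12 B cell libraries averaged -1.27 ± 0.29 and the 4 T cell libraries -1.40 ± 0.28 (SD), a difference of 0.13 (exact permutation test, p = 0.445, adjusted 0.762). Only B cells have Pol2 libraries, and without these the difference was 0.070 (p = 0.681 by the same exact test). Over the same 12 B and 4 T cell libraries, Pol2 included, it was 0.43 with the left flank alone as the base (exact permutation test, p = 0.0033). With the right flank alone it was -0.08. Relative to the left flank the Pol2 libraries were the deepest, at 1.04 with 10058-F4 and 0.812 in B4. The IgG libraries alone gave a difference of 0.20 with the left flank (exact permutation test, p = 0.143). The reads of the left flank over those of the right flank ran from 0.541 to 0.885 in B cell IgG libraries, against 0.942 in T4 IgG and 0.784 in the library labelled T14 IgG. The flanks therefore differ between libraries too. Within B4 IgG replicate 1 this ratio was 0.926 for reads of 24 bases and 0.766 for reads of 30 bases. Within B4 Myc replicate 1 it was 0.843, 0.822 and 0.765 for reads of 24, 25 and 30 bases. The ratio was thus lowest for the longest reads in both, but no interval was taken for it. The labels do not say that libraries come from separate animals, so these p-values measure the spread between libraries. The tests over all antibodies, here and below, took every library as independent and ignored antibody. Libraries of 1 chromatin preparation may not be independent, so those p-values can be too small.

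**Figure D1:**
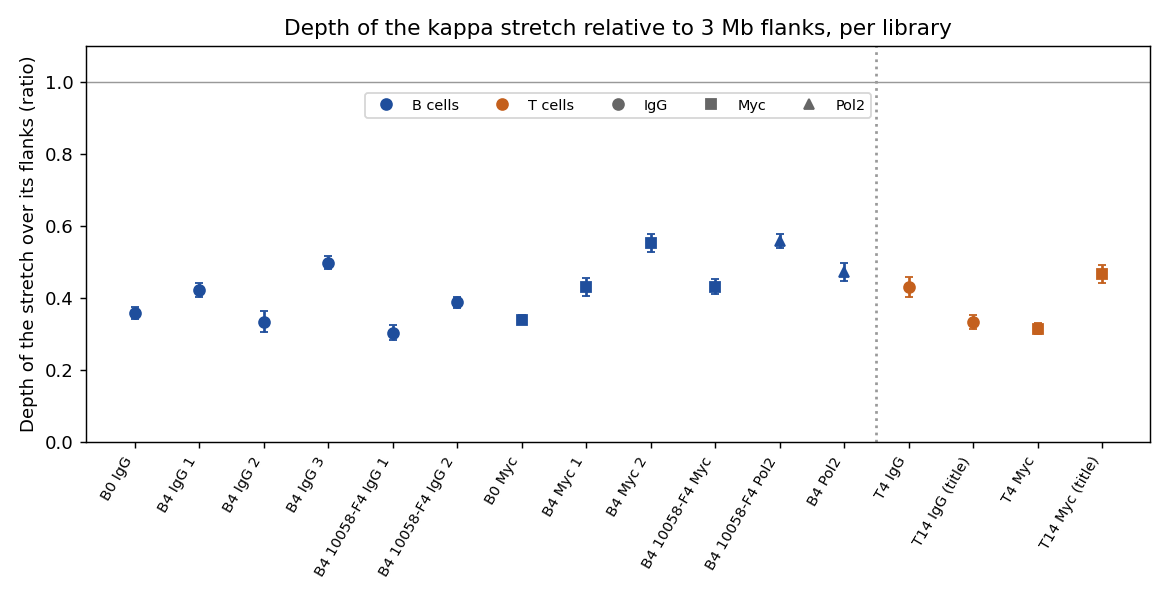
Reads per 5 kb window of the kappa stretch over reads per 5 kb window of its flanks (y axis, ratio) in each library (x axis), B cells left of the dotted line and T cells right of it. Bars are exact 95% binomial intervals for counting error only, and all 16 values lie between 0.303 and 0.558.

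Replicates of 1 treatment varied about as much as treatments did. The B4 IgG replicates alone spanned 0.334 to 0.498. In the Myc libraries it was 0.431 with 10058-F4, 0.430 and 0.552 in B4 and 0.339 in B0, against 0.314 in T4 Myc and 0.466 in the library labelled T14 Myc. The 2 B4 Myc replicates thus differ by more than the B4 library of replicate 1 differs from the 10058-F4 library. Within B4 IgG replicate 1, reads of 24 bases gave 0.410 and reads of 30 bases gave 0.428, with overlapping 95% intervals (0.378 to 0.445 and 0.403 to 0.453).

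Among 698 stretches of 3.4 Mb laid along chromosomes 1 to 19, the kappa stretch was one of the shallowest. It held 600.3 RPM in the summed B cell IgG libraries, with 8 stretches lower, against 534.4 RPM in the summed T cell IgG libraries, with 9 lower. The medians over all stretches were 1401 RPM in B cells and 1445 RPM in T cells. Few windows were empty: 11 of 680 windows of the stretch (1.62%) and 14 of 1200 windows of the flanks (1.17%) had no read in any library. These 11 windows were scattered, with no pair adjacent. The median window held 34 reads over all libraries in the stretch and 118 in the flanks.

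Depth did not run as a simple slope along the stretch but fell and rose in the same places in both cell types. In 34 segments of 100 kb, summed IgG depth relative to the flanks ran from 0.1005 to 1.32 in B cells and from 0.0709 to 1.20 in T cells. The shallowest segment, chr6:69100001-69200000, was at 0.1005 in B cells and 0.0709 in T cells. The deepest was the last, chr6:70700001-70800000, at 1.32 in B cells and 1.20 in T cells. The first segment was at 0.793 in B cells and 0.912 in T cells. The stretch is thus near the depth of its flanks at both ends and low between them.

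Segment profiles were as alike between cell types as within B cells. Spearman's rho over the 34 segments had a median of 0.871 over 12 pairs of a B and a T cell IgG library and of 0.863 over 15 pairs of B cell IgG libraries. It was 0.926 for the pair of T cell IgG libraries. The segments share the sequence of the locus and are not independent, so these values are a description.

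**Figure D2:**
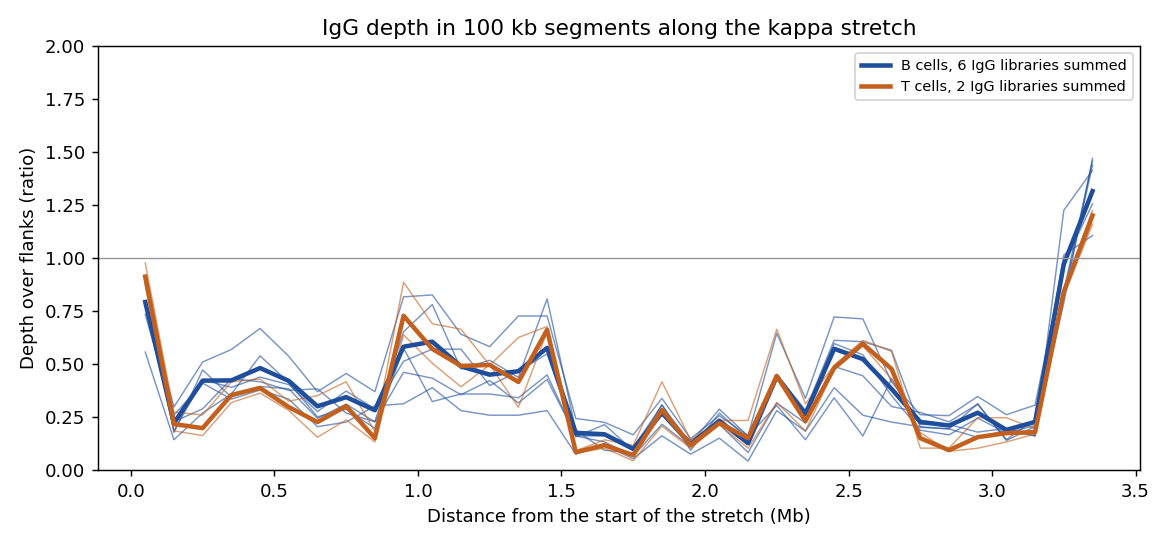
IgG depth over the flanks (y axis, ratio) in 100 kb segments by distance from the start of the kappa stretch (x axis, Mb), with thin lines for libraries and thick lines for sums. Both sums are low in the middle and reach 1.32 in B cells and 1.20 in T cells in the last segment.

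The least-squares slope of log2 relative depth along the stretch was -0.074 ± 0.031 per Mb in B cell IgG libraries (SD, n = 6) and -0.092 ± 0.050 per Mb in T cell IgG libraries (SD, n = 2). The difference of 0.02 per Mb was within the spread between libraries (exact two-sided permutation test, p = 0.571, adjusted 0.762). With the T14 libraries exchanged it was 0.10 per Mb, with all 6 B cell libraries above both T cell libraries (exact permutation test, p = 0.0714, the smallest this design can give). Within B4 IgG replicate 1 the slope was -0.15 per Mb for reads of 24 bases and -0.03 per Mb for reads of 30 bases. These are further apart than B and T cells as titled. Within B4 Myc replicate 1 the slope hardly moved, at -0.19, -0.17 and -0.19 per Mb for reads of 24, 25 and 30 bases. The slope itself depended on which windows entered it. Without the last 200 kb it averaged -0.32 per Mb in B cells and -0.33 per Mb in T cells. In the 108 of 680 windows with at least 20 reads in each cell type it averaged 0.059 and 0.037 per Mb. That choice drops shallow windows, so it selects on depth itself. Over all antibodies the slope averaged -0.05 ± 0.12 per Mb in 12 B cell libraries and -0.12 ± 0.07 per Mb in 4 T cell libraries (exact permutation test, p = 0.241, adjusted 0.762). Without the Pol2 libraries the difference of 0.075 per Mb became 0.031 per Mb (exact permutation test, p = 0.436). The Pol2 libraries had the highest slopes, 0.26 per Mb with 10058-F4 and 0.08 per Mb in B4. Single slopes of IgG libraries had standard errors of at least 0.14 per Mb, wider than the differences between libraries.

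The ratio of B to T cell depth varied from segment to segment without a trend. Its log2 ran from -0.32 to 1.16 with a median of 0.18, and its slope was 0.0003 ± 0.0712 per Mb (standard error over 34 segments). In 5 of 34 segments (14.7%) all 6 B cell IgG libraries lay above both T cell IgG libraries in RPM, and in 0 segments below. Over all 23887 segments of chromosomes 1 to 19 the B cell libraries lay above in 7.55% and below in 7.85%. The 3 segments with the highest ratios held 18 to 42 reads in the summed T cell IgG libraries.

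In chr6:70200001-70300000 the relative depth was 0.195, 0.167, 0.195, 0.216, 0.257 and 0.228 in the B cell IgG libraries, against 0.104 in T4 and 0.089 in the library labelled T14 IgG. The groups do not overlap there, and the log2 ratio of the sums was 1.16 (95% counting interval 0.49 to 1.90), from 195 reads in B cells and 20 reads in T cells. Against B4 IgG replicate 1 alone, whose reads are about as short as those of the T cell libraries, the ratio was 1.05. In chr6:67600001-67700000 the log2 ratio was 1.09 (0.63 to 1.58) over all B cell libraries, and 0.54 with the short reads alone. In chr6:68900001-69000000 it was 1.05 (0.34 to 1.84), and 1.15 with the short reads alone. There B4 10058-F4 IgG replicate 1, at 0.076, lay below T4 IgG at 0.091.

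The 3 lowest ratios were small. The log2 ratio was -0.32 in chr6:68300001-68400000 (95% counting interval -0.58 to -0.05), -0.32 in chr6:70000001-70100000 (-0.64 to 0.02) and -0.25 in chr6:69500001-69600000 (-0.82 to 0.36). With short reads alone these were -0.16, 0.24 and -0.03. B and T cell libraries overlapped in all 3.

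**Figure D3:**
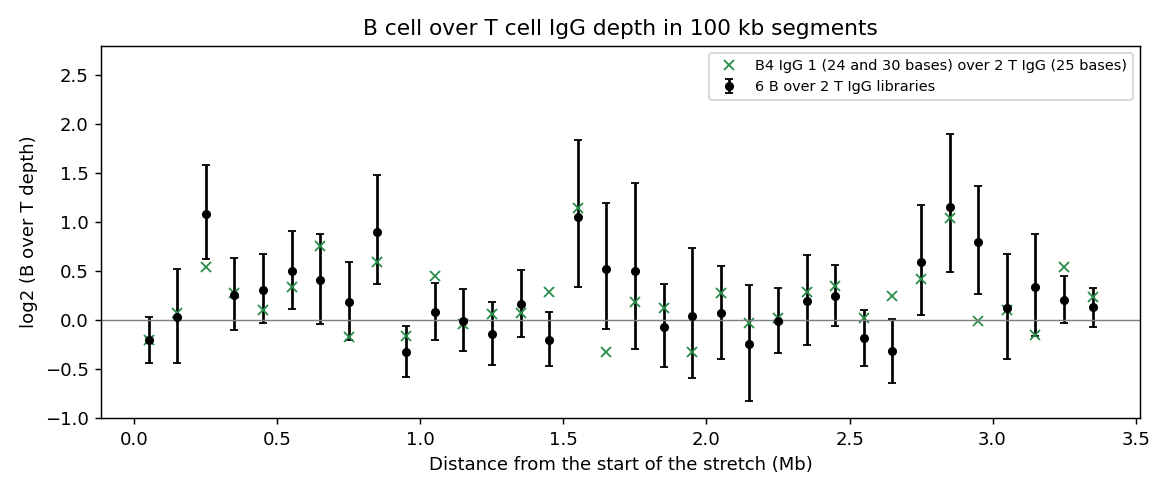
log2 ratio of B to T cell IgG depth (y axis) in 100 kb segments by distance from the start of the stretch (x axis, Mb). Points are sums of 6 B and 2 T cell libraries with exact 95% counting intervals, crosses use B4 IgG replicate 1 alone, and the points run from -0.32 to 1.16.

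In single 5 kb windows no difference between B and T cell IgG passed the test. Of the 184 windows of the stretch with enough reads, 0 were called by limma with voom weights at an adjusted p below 0.05, where 0.0% of 396876 windows were called over chromosomes 1 to 19. At an unadjusted p below 0.05, 1 window of the stretch was higher and 15 were lower in B cells, which is 0.543% and 8.15%, against 0.846% and 5.95% of all windows. With the T14 libraries exchanged, limma called 0 of 186 windows of the stretch, where 0 of 397196 windows were called over chromosomes 1 to 19. At the unadjusted level 18 passed, 1 of them higher in B cells. The direction among such windows depended on the fit: with limma-trend 8 passed, 5 of them higher in B cells. For both of these fits the share over all windows at that level was not taken, so the counts cannot be set against it. With reads of 30 bases or fewer, B4 IgG replicate 1 was the only B cell library. The median log2 ratio over windows of the stretch was then 0.21, against -0.07 with all IgG libraries as titled. With libraries as titled, the other 496 windows of the stretch had too few reads to test.

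Pol2 in LPS-activated B cells was gathered at the end of the stretch where depth was highest. The last 200 kb, an extent chosen after the reads were seen, are 5.88% of the length. They held 65.8% of the stretch's Pol2 reads with 10058-F4 (exact 95% binomial interval 64.4 to 67.2) and 44.5% without it (42.1 to 46.9). Of the IgG reads of the stretch they held 21.9% and 16.1% with 10058-F4 and 18.4%, 19.9% and 13.1% in B4. Each Pol2 condition is 1 library, so no test of the compound could be made. All intervals on Pol2 cover counting error only and compare libraries, not conditions.

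With 10058-F4 the last 200 kb held 564 Pol2 RPM, against 316 RPM without it, a ratio of 1.78 (95% interval 1.64 to 1.93). Before the last 200 kb the stretch held 293 RPM with 10058-F4, against 395 RPM without it, a ratio of 0.742 (0.683 to 0.806). The left flank was at 0.944 (0.893 to 0.999) and the right flank at 1.05 (1.01 to 1.08). The 2 parts of the stretch thus differed in opposite directions. IgG of the same states also differed before the last 200 kb, at 454 RPM with 10058-F4 and 563 RPM without it. Relative to IgG the log2 ratio there was -0.12, where it was -0.43 without that step.

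Regions of enrichment were called with all IgG libraries of a state added up as its control, as 500 bp bins with an adjusted p below 0.01 and at least 4-fold enrichment, joined where adjacent. With 10058-F4 there were 51 Pol2 regions in the stretch, 42 of them in its last 200 kb. Without it there were 20, of which 18 lay there. This is 15.0 per Mb with 10058-F4 and 5.88 per Mb without it, in flanks with 20.8 and 11.5 per Mb. Of all bins of chromosomes 1 to 19, 1.8% were called with 10058-F4 and 0.904% without it, against 1.53% and 0.515% of the bins of the stretch. The library with 10058-F4 was the deeper one, and thinned to the depth of the other it gave 33 regions. Of the 51 regions, 15 (29.4%) overlapped a region called without the compound, and of the 20 regions 17 (85.0%) overlapped one called with it.

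**Figure D4:**
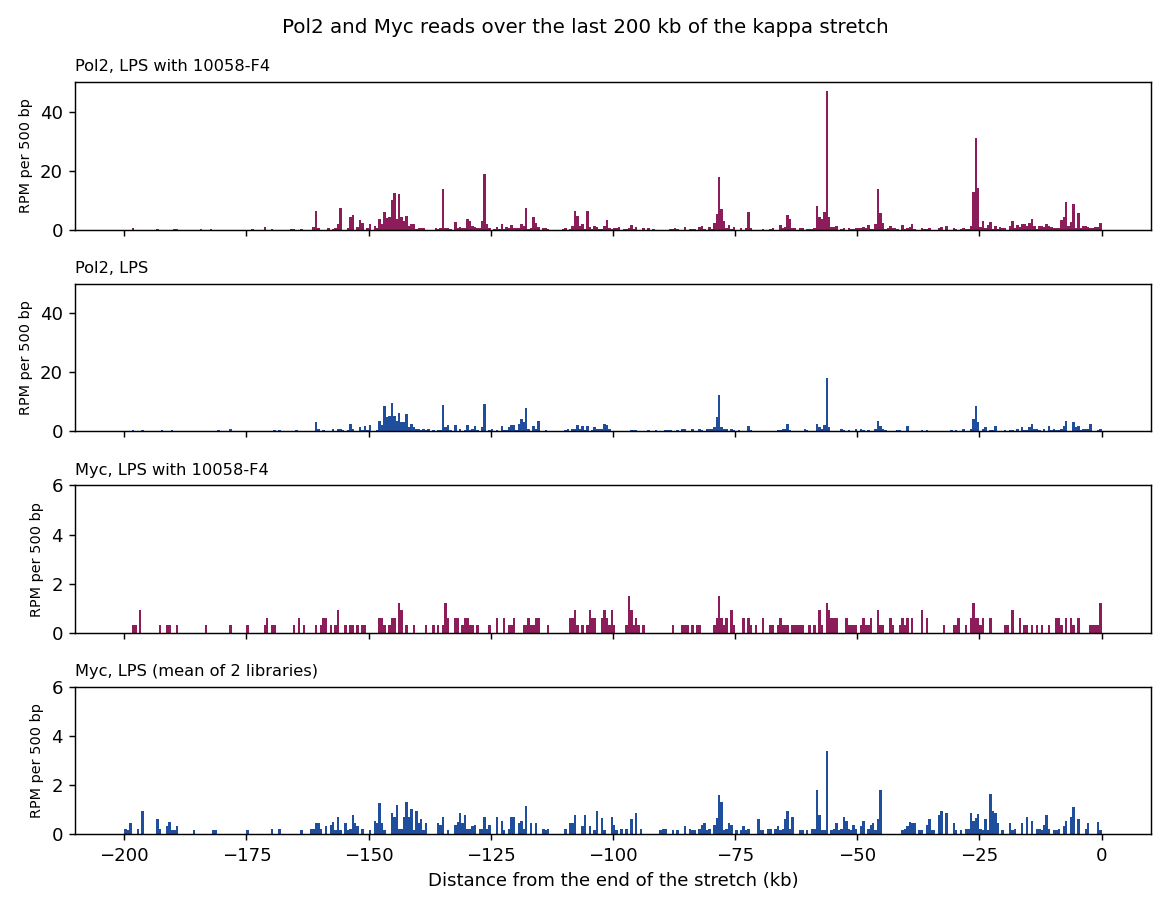
RPM per 500 bp bin (y axis) by distance from the end of the kappa stretch (x axis, kb) for Pol2 and Myc, each with 10058-F4 above LPS alone. The highest bin stands at the same distance in both Pol2 libraries. Myc axes end at 6 RPM and Pol2 axes at 50 RPM.

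The strongest regions were shared but differed in ratio. The region chr6:70741501-70744500 held 72.7 Pol2 RPM with 10058-F4, against 26.1 RPM without it, a ratio of 2.79 (95% interval 2.13 to 3.71). The broad region chr6:70652001-70658000 held 69.2 RPM with 10058-F4, against 59.7 RPM without it, a ratio of 1.16 (0.951 to 1.42). It was the strongest without the compound and ranked second with it. IgG was at 4.86 and 3.07 RPM in the first of these and at 3.89 and 4.81 RPM in the second, with and without 10058-F4.

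The region chr6:70773501-70775000 held 58.3 RPM with 10058-F4, against 15.6 RPM without it, a ratio of 3.74 (2.66 to 5.42). Its interval does not meet that of the broad region. The region chr6:70720501-70723000 held 34.7 RPM with 10058-F4, against 20.2 RPM without it, a ratio of 1.72 (1.24 to 2.42). The region chr6:70791501-70794500 held 29.2 RPM with 10058-F4, against 8.83 RPM without it, a ratio of 3.31 (2.09 to 5.50). Of these 5 regions, the broad one had the ratio nearest to 1.

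Of the other regions among the 10 strongest of either library, chr6:70673001-70674500 had a ratio of 2.24 (1.45 to 3.60), chr6:70753501-70755500 of 3.48 (2.05 to 6.28) and chr6:70692001-70693000 of 3.71 (1.69 to 9.64). The ratio was 1.57 (0.951 to 2.68) in chr6:70665001-70665500, 1.77 (1.01 to 3.28) in chr6:70783501-70786500 and 1.22 (0.647 to 2.45) in chr6:70683501-70685000. One strong region was lower with 10058-F4: chr6:70680501-70682500 held 11.1 RPM with it, against 17.7 RPM without it, a ratio of 0.629 (0.415 to 0.960).

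**Figure D5:**
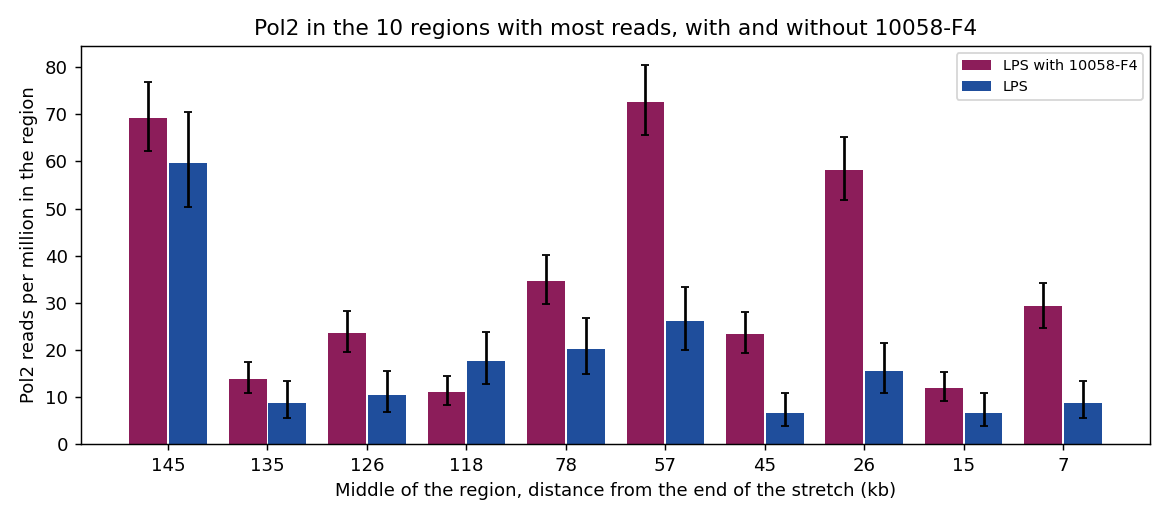
Pol2 RPM (y axis) in the 10 regions of the stretch with most reads with 10058-F4, placed by the distance of their middle from the end of the stretch (x axis, kb), with exact 95% Poisson intervals. The region at 57 kb stands at 72.7 RPM with 10058-F4 against 26.1 RPM with LPS alone, and the region at 118 kb at 11.1 against 17.7 RPM.

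Over all 53 regions called in either library, 32 (60.4%) were more than 2-fold higher with 10058-F4 and 2 (3.77%) more than 2-fold lower, where 37.1% and 11.1% of 48467 regions of chromosomes 1 to 19 were. Which regions are called moves with depth, as the thinned library shows, so the 16 regions with calls of both libraries were also counted. For these counts, calls that overlap or only adjoin were joined to 1 region. Of these 8 (50.0%) were more than 2-fold higher and 0 lower, where 16.8% and 3.99% of 19800 such regions were. The median ratio of these 16 regions was 1.99, against 1.33 over the 19800. In 20 of the 53 regions the 95% interval lay above 1, in 2 below 1, and in 31 it held 1. These are 37.7% and 3.77%, against 25.5% above 1 and 7.86% below 1 over the 48467 regions.

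In 5 kb windows the same places led. The window chr6:70740001-70745000 held 74.5 RPM with 10058-F4, against 26.1 RPM without it, and chr6:70770001-70775000 held 61.4 RPM, against 17.7 RPM. Without the compound the highest window was chr6:70650001-70655000, with 32.9 RPM with 10058-F4, against 35.8 RPM without it. It was followed by chr6:70655001-70660000, with 44.6 RPM with 10058-F4, against 32.4 RPM without it. The window chr6:70720001-70725000 held 38.2 RPM with 10058-F4, against 23.1 RPM without it, and chr6:70670001-70675000 held 34.1 RPM, against 15.98 RPM. Only chr6:70650001-70655000 and chr6:70680001-70685000, with 19.5 RPM with 10058-F4 against 24.8 RPM without it, were lower with the compound among these 7 windows.

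Outside the last 200 kb Pol2 regions were few and weak, 9 with 10058-F4 and 2 without it. The strongest lay near the start of the stretch, where chr6:67462001-67463500 held 10.1 RPM with 10058-F4, against 2.94 RPM without it, a ratio of 3.44 (1.56 to 8.98).

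Myc gave little signal in the stretch. B4 Myc replicate 1 had 3 regions, each a single bin, which is 0.0441% of the bins of the stretch where 0.0438% of all bins were called. They were chr6:69445501-69446000 with 11 reads, chr6:67461501-67462000 with 9 reads and chr6:70754501-70755000 with 7 reads. B4 Myc replicate 2 had 0 regions, where 0.00725% of all bins were called, and the library with 10058-F4 had 0, where 0.000954% were. None of the 3 regions overlapped a Pol2 region called without 10058-F4, and chr6:70754501-70755000 lay inside one called with it. The bin chr6:67461501-67462000 lay directly between 2 Pol2 regions and adjoined both. These were chr6:67461001-67461500, called in both Pol2 libraries, and chr6:67462001-67463500, called only with 10058-F4. B0 Myc, T4 Myc and the library labelled T14 Myc had 0 regions in the stretch. Over chromosomes 1 to 19 they had 442, 1151 and 10, which is 0.184, 0.478 and 0.00416 per Mb. At such rates 0 regions in 3.4 Mb say little about the stretch.

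At the Pol2 regions Myc was weakly above IgG in 1 of the 2 B4 libraries and in B0. Over the 53 Pol2 regions, Myc was 0.889 times IgG with 10058-F4 (95% interval 0.727 to 1.08), and 1.60 (1.31 to 1.95) and 0.961 (0.775 to 1.18) in B4 replicates 1 and 2. It was 1.33 (1.13 to 1.57) in B0, without LPS, and 1.16 (0.865 to 1.57) in T4. Over the 48467 regions of chromosomes 1 to 19 the values were 1.16 with 10058-F4, 1.75 and 1.16 in B4, 1.19 in B0 and 1.46 in T4. IgG entered the choice of these regions, so these values are a description, and the part of that choice in them was not tested. In chr6:70741501-70744500 Myc was at 3.32 RPM with 10058-F4 and at 7.47 and 5.16 RPM in B4. IgG was at 3.79 and 5.30 RPM there with 10058-F4, and at 2.97, 6.26 and 2.34 RPM in B4. The B4 Myc and B4 IgG values overlap.

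No 5 kb window of the stretch passed the replicated test of Myc over IgG in B4. Of 203 windows, 0 were called by limma at an adjusted p below 0.05, where 0.00126% of 395560 windows were called as higher. At an unadjusted p below 0.05, 13 were higher and 2 lower, which is 6.40% and 0.985%, against 3.04% and 1.38% of all windows. With limma-trend 2 windows of the stretch passed this level, 1 of them higher, and the share over all windows was not taken for that fit. The 5 windows with the highest mean log2 ratio of Myc to IgG held at most 6 Myc reads per library. The highest was chr6:69155001-69160000, with 2 and 3 Myc reads and 0 IgG reads in the 3 B4 IgG libraries. It was followed by chr6:70600001-70605000 with 6 and 4 Myc reads, chr6:69610001-69615000 with 2 and 4, chr6:68045001-68050000 with 4 and 2 and chr6:69005001-69010000 with 1 and 3. For the change of Myc over IgG with 10058-F4, 0 of 199 windows of the stretch were called by limma, where 0.0% of 400670 windows were. At an unadjusted p below 0.05, 2 were higher and 2 lower with 10058-F4, which is 1.01% each, against 1.59% and 1.30% of all windows. The change with 10058-F4 rests on 1 Myc library with the compound, which was assumed to vary like the replicated groups. The depth of the stretch limits these tests, and a difference was not detectable rather than absent.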

How the data were processed

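The deposited files list aligned reads of mm8 with chromosome, first and last position, length and strand, and hold no counts. The submitters' processing notes name Bowtie 0.12.7 and CASAVA 1.0. Their settings, including the treatment of reads that align to several places, are not given in the sources used here. Positions were read as counted from 1, which fits the read lengths but is not stated. Groups follow the titles.

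Reads repeating a 5′ end on the same strand were dropped, 5.29% of them in replicate 1 of B4 Myc and no more than 0.0808% in any other library. Depth used read midpoints. Regions and Pol2 sums used 5′ ends moved to the fragment centre by an offset between strands of 90 to 175 bases, so totals can differ by a read. Segments with no read were set to 0.5 reads, and log2 ratios of RPM had 0.1 RPM added. Region calls used as background whichever was highest among the genome-wide rate and scaled IgG, averaged over the bin, over 5.5 kb or over 10.5 kb (one-sided Poisson test, Benjamini-Hochberg).

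Window tests used limma 3.58.1 in R 4.3.3 with voom weights on 5 kb windows of at least 4 reads per library on average, and each statistic was tested on simulated data. Other steps used Python 3.11.15 with numpy 2.4.6, scipy 1.17.1 and pandas 2.3.3. Libraries of a group were compared over 1 Mb windows (chi-square over its degrees of freedom 12.9 to 69.7), had no more than 0.451% of positions in common and were all kept as replicates. Named segments and windows are those with the 3 lowest and 3 highest B to T ratios, the 5 with most Pol2 reads per library, the 5 with the highest Myc ratio, and the 10 strongest regions per library. The stretch and these rules were chosen with earlier results of these data known. No mm8 sequence was used here.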

Additional observations from a re-analysis of the deposited data

How the results depend on the processing

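The sign of the small B minus T differences depended on the processing. For log2 IgG depth it was -0.33 in windows with at least 20 B and 20 T reads, -0.011 with flanks of 1 Mb, -0.14 with the right flank only, -0.24 with the T14 antibodies exchanged, -0.18 without both T14 libraries and -0.033 without the last 200 kb, an alternative chosen after seeing the data. Leaving out 1 library gave -0.18 to 0.19 for IgG depth, -0.017 to 0.054 per Mb for the IgG gradient, 0.039 to 0.23 for depth and 0.042 to 0.096 per Mb for the gradient over all libraries. Depth over all libraries was -0.067 in windows with at least 20 reads on each side, -0.081 with the right flank only and -0.054 without the last 200 kb, and passed the threshold with the left flank only (0.43). The gradient over all libraries was -0.0034 per Mb with reads of 30 bases or fewer. The windows with at least 20 reads on each side were picked by the same reads that were then compared, so those values cannot decide the sign. The causes were not tested.

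At an adjusted p below 0.0001, regions numbered 33 with 10058-F4 and 12 without it for Pol2, and 0 for B4 Myc replicate 1; thinning gave 33 with 10058-F4. Without 1 IgG library, an alternative chosen after seeing the data, Pol2 regions numbered 50 to 51 with 10058-F4 and 16 to 21 without it, and Myc regions of replicate 1 numbered 2 to 3. Relative to IgG, the log2 Pol2 ratio was 0.55 over the stretch and -0.12 before its last 200 kb. Myc over IgG gave 0 to 1 windows of the stretch when 1 library was left out, and the 1 came without B4 IgG replicate 1. With libraries paired by title in a replicate block, 0 windows of the stretch were called for Myc over IgG and 0 for its change with 10058-F4; over chromosomes 1 to 19 Myc over IgG gave 839 windows with the block and 16 without it on the same 4 libraries. The deviations of the paired titles correlated at 0.096 over single 5 kb windows, and the block is not used elsewhere. Counting error in windows of few reads lowers such a correlation, so it cannot exclude an effect of the pairs. The block also separates reads of 24 to 30 bases from reads of 45 bases. Of 174 alternatives, 15 turned the sign, 7 moved a value or count and 1 passed the threshold where the reported value did not. The other 151 did none of these. For counts of regions or windows that means within 1.5 times the reported count. For B minus T depth and gradient it means only the same sign and the same side of p = 0.05 in the exact permutation test. These tests on IgG libraries cannot give a p below 0.0714. An IgG alternative that kept its sign was therefore counted among the 151 whatever its size. An example is the IgG gradient with the T14 antibodies exchanged, at 0.10 per Mb against 0.019 per Mb as titled. Depth limits single windows, since 10.3 to 50.7% of windows of the stretch held 0 reads in a library.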
